A study of Danio rerio with 63 samples.

Results

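The 10 genes described here, actc1b, acta1b, tnnt3b, mylpfa, myhz1.1, ckma, ckmb, pvalb1, pvalb2 and stac3, encode proteins of skeletal muscle. They were read in 63 libraries labelled as brain regions of adult zebrafish. They were taken by symbol from the 15418 genes of the count table, in which all 10 had a row. Earlier results of these data were known when they were picked: actc1b and stac3 were selected on a change with genotype, so their genotype values are given below as a description, with no test. RNA came from the olfactory bulb (OB), the telencephalon (Tel) and the hypothalamus of wild-type (WT) fish of the AB strain and of fish of a cyp19a1b mutant line, in which TALENs had removed 10 nucleotides from exon 2 of the brain aromatase gene. Each library was made from tissue pooled from 3 fish of one sex and genotype. In each region there were 6 WT female, 4 mutant female, 6 WT male and 5 mutant male pools. Pools carry codes such as A1 or C2, which recur in the 3 regions of a group. The fish numbers given in the study are those of a single set of pools, so the 3 regions of a group came from the same fish, but the sources used here do not spell out that a code marks the same fish in each region.

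In fast skeletal muscle, actin filaments carrying tropomyosin and troponin slide along myosin, creatine kinase regenerates the ATP that is spent, and parvalbumins bind the calcium that triggered the contraction. That calcium is released when the voltage sensor Cav1.1 opens the ryanodine receptor, a coupling that needs the adaptor protein Stac3. None of the 10 genes is a usual marker of neurons or glia, although parvalbumins are also known from some neurons. Each transcript was counted by unique molecular identifiers (UMIs) at its 3′ end, and levels are given as CPM, the counts per 1000000 of a library total scaled by TMM.

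Libraries held 21444 to 1033008 UMIs, with a median of 281160. Mutant females had the fewest, with 31219 to 207510 in the OB, 21444 to 188958 in the Tel and 78533 to 348901 in the hypothalamus. The deposited 3′ counts do not read the deleted stretch of cyp19a1b, so they do not check the genotype labels; its level was 966 to 1872 CPM in the Tel of WT females and 797 to 1327 CPM in that of mutant females. The 9 brain markers in the table summed to 11824 to 22175 CPM in the hypothalamus and 5442 to 14398 CPM in the Tel, but only to 414 to 1048 CPM in libraries labelled OB. The 11 skin markers in the table summed to 5538 to 15991 CPM in the OB and 199 to 311 CPM in the hypothalamus. In the Tel they summed to 154 to 442 CPM in 20 libraries and to 10931 CPM in WT male pool A1, which stands apart. This library, or the hypothalamus library of WT male pool C2 described below, sets some values, and the main ones are also given without it.

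The 10 muscle transcripts were rare in all 3 regions. They summed to 3435 UMIs over the 63 libraries (156 CPM of all UMIs pooled), of which 1079 came from the OB, 584 from the Tel and 1772 from the hypothalamus. Per library their summed level ran from 63.6 to 563 CPM with a median of 135 CPM, and every library held some of them. The highest sum was that of the hypothalamus library of WT male pool C2, and the next was 504 CPM. The counts were spread unevenly over the genes. actc1b and pvalb2 had a count in 61 of the 63 libraries each, while acta1b had one in 20. By the usual filter on low counts only actc1b and ckma would have been kept in the OB, stac3 in the Tel, and actc1b, mylpfa, myhz1.1, pvalb2 and stac3 in the hypothalamus. The others were kept in the fits by name, so their values rest on a handful of UMIs per library. Since tissue was homogenised, fewer muscle cells and less RNA per cell cannot be told apart.

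**Figure D1:**
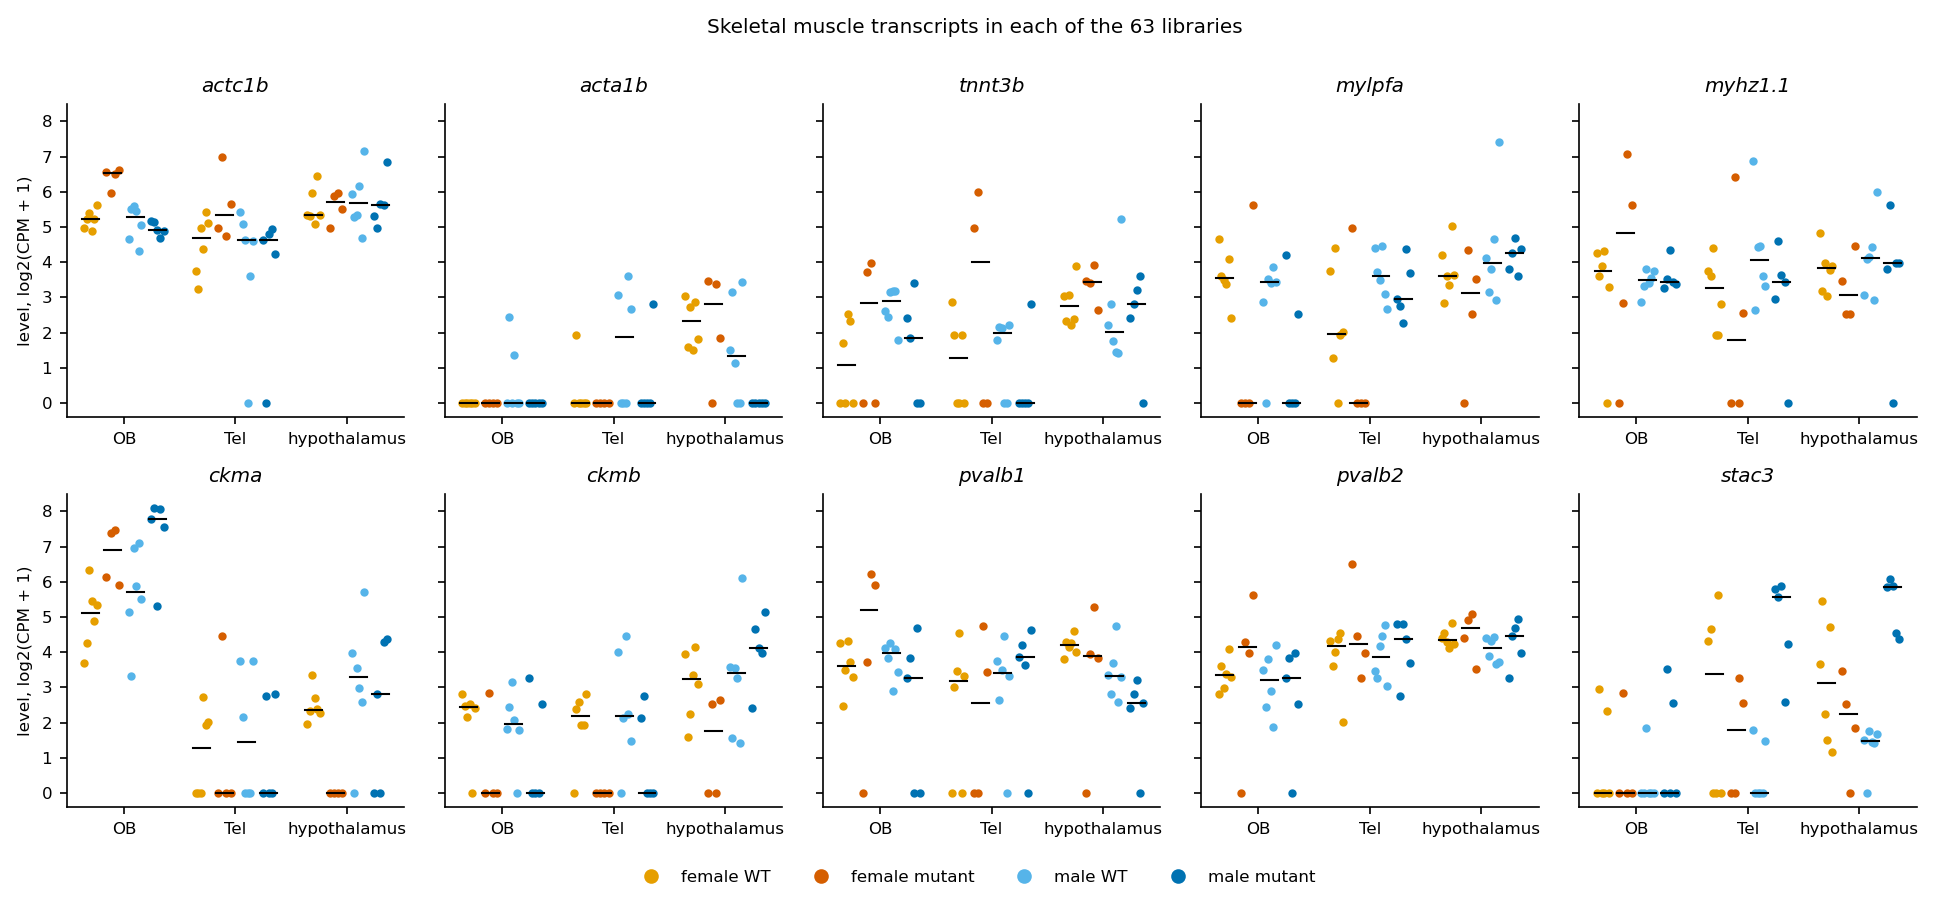
Level of each of the 10 genes in the 63 libraries, as log2(CPM + 1); each point is a library of 3 pooled fish, coloured by sex and genotype, and each line is the median of a group. The points of ckma lie highest in the OB, those of stac3 split within the Tel and the hypothalamus, and points at 0 are libraries with no count.

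Of the thin filament genes, actc1b, an alpha-actin of heart and skeletal muscle, was read most evenly. Its median in the OB was 36.3 CPM (18.9 to 97.4), against 25.7 CPM (0 to 126) in the Tel. In the hypothalamus it was 44.8 CPM (24.9 to 141, or 24.9 to 113 without WT male pool C2). acta1b, another alpha skeletal actin, gave 2, 12 and 34 counts in these regions. tnnt3b, the troponin T of fast muscle that anchors the troponin complex to tropomyosin, gave 26, 15 and 83. In the hypothalamus 9 counts of acta1b and 33 of tnnt3b came from WT male pool C2. The 2 myosin genes lay in between. mylpfa, the regulatory light chain of fast myosin, had medians of 9.51, 6.75 and 13 CPM in OB, Tel and hypothalamus. myhz1.1, a fast myosin heavy chain, had medians of 10.5, 9.95 and 13.9 CPM. Reads that map to several places had been excluded, so actins, myosin heavy chains and other near-identical copies may be undercounted, and in the reference annotation mylpfa overlaps tbc1d10b.

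The muscle creatine kinases differed in their regional pattern. ckma gave 537 of the 1079 counts of the 10 genes in the OB (49.8%), but only 21 in the Tel and 99 in hypothalamus libraries, whereas its paralog ckmb gave 19, 20 and 141 counts. In the hypothalamus 47 counts of ckma and 62 of ckmb came from WT male pool C2. pvalb1 and pvalb2, the calcium buffers, were steadier. In OB, Tel and hypothalamus the median of pvalb1 was 12.3, 9.79 and 11.9 CPM, and that of pvalb2 was 9.51, 17.0 and 20.2 CPM. stac3 was counted 11 times in the OB, 84 in Tel and 107 in hypothalamus libraries.

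To ask whether WT libraries differed by region label, the 36 WT libraries were fitted together and the sexes averaged. Libraries labelled OB held few brain and many skin markers, as given above, so contrasts with them are not between brain tissue alone. ckma was far higher in the OB than elsewhere. Its WT levels in the OB were 12 to 79.2 CPM in females (median 33.9) and 8.96 to 135 CPM in males (median 51.1), against 0 to 5.59 CPM and 0 to 12.6 CPM in the Tel. The groups overlapped only in males, where the lowest OB library (8.96 CPM) lay below the highest Tel libraries. How many of all genes were without overlap was not computed, so nothing is read from it in females. By the quasi-likelihood test of edgeR, with p-values adjusted by Benjamini-Hochberg over all genes tested, ckma was higher in the OB than in the Tel by a log2 fold change of 3.62 ± 0.55 (SE, adjusted p = 1.51e-07) and than in the hypothalamus by 2.35 ± 0.41 (adjusted p = 2.59e-06). Over all 21 libraries of each region, ckba, a brain-type creatine kinase, read 126 to 477 CPM in the OB and 10.5 to 84.3 CPM in the Tel, while its paralog ckbb read 535 to 1167 against 2902 to 11916 CPM. Which tissue carried the skin markers read in the OB, and its part in the level of ckma there, was not tested.

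ckma was the only one of the 10 genes called between OB and Tel (stac3 was added with the pool as replicate block), where 58.7% of all 7065 genes tested were called (called where the adjusted p did not exceed 0.05 and levels differed by 1.5-fold or more). Between OB and hypothalamus, 8 of the 10 were called beside a background of 60.5%. In addition to ckma, the other 7 were lower in the OB: acta1b by 3.05 ± 0.86 on the log2 scale, stac3 by 2.07 ± 0.90, ckmb by 1.91 ± 0.55, mylpfa by 1.34 ± 0.47, tnnt3b by 1.31 ± 0.53, pvalb2 by 0.98 ± 0.26 and actc1b by 0.74 ± 0.25 (SE). The value of acta1b rests on 2 counts in the WT libraries of the OB, both in males. For those not selected on genotype, the adjusted p-values ran from 0.000797 for pvalb2 to 0.0264 for tnnt3b (edgeR). myhz1.1 and pvalb1 were not called. The WT libraries on which actc1b and stac3 had been selected are among those compared, so their values are a description. Without the hypothalamus library of WT male pool C2, 4 of the 8 remained (acta1b, ckma, ckmb and pvalb2). The differences of mylpfa, tnnt3b and actc1b shrank to -0.48, -0.43 and -0.45, while that of stac3 was -1.97. With the pool as replicate block 7 were called, without tnnt3b, and without the Tel library of WT male pool A1 there were 9, myhz1.1 being added.

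Between hypothalamus and Tel, 4 of the 10 were called, all higher in the hypothalamus, beside a background of 14.5%. They include actc1b, and the WT libraries on which it had been selected are among those compared. As a description, actc1b was higher by a log2 fold change of 1.15 ± 0.26. By edgeR mylpfa was higher by 1.75 ± 0.52 (adjusted p = 0.013), tnnt3b by 1.75 ± 0.55 (0.0172) and ckmb by 1.55 ± 0.53 (0.0326). Without the hypothalamus library of WT male pool C2 only actc1b was called, with a difference of 0.92, and none of the genes not selected on genotype was. The adjusted p-values of mylpfa, tnnt3b and ckmb became 0.0777, 0.174 and 0.187 (edgeR). Leaving out female pool C1 left actc1b and tnnt3b, while leaving out the Tel library of WT male pool A1 left all 4. With the pool as replicate block the count was also 4.

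**Figure D2:**
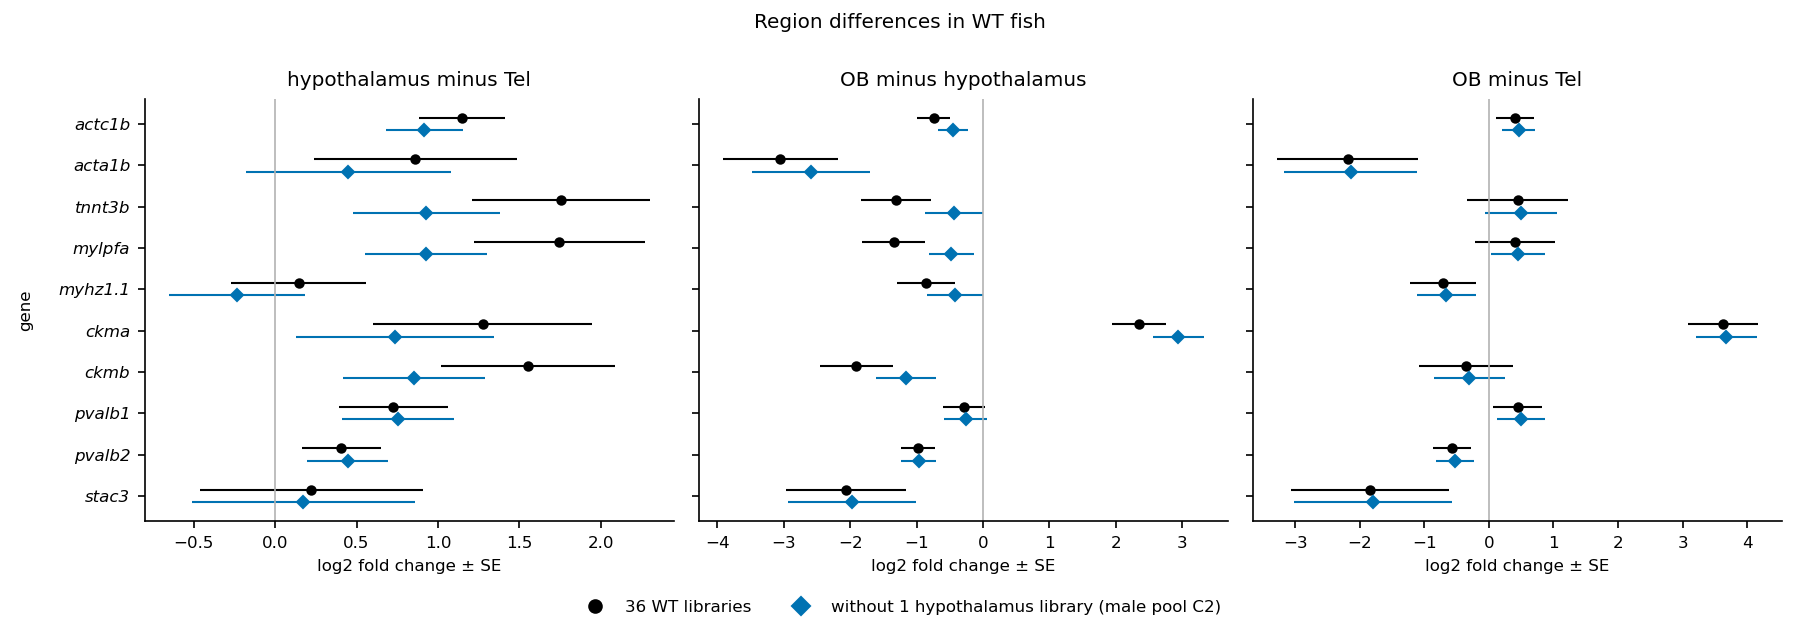
Log2 fold change ± SE of each gene between regions of WT fish, from 36 libraries (black circles) and without the hypothalamus library of WT male pool C2 (blue diamonds). ckma is the gene farthest to the right in both panels with the OB, and the blue points of mylpfa, tnnt3b and ckmb lie nearer to 0 than the black ones wherever the hypothalamus is compared.

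That library held 511 of the 1772 UMIs of the 10 genes in the hypothalamus, and a summed level of 563 CPM against 64.8 to 242 CPM in the other 20. The excess was not shared by all 10 genes. mylpfa stood at 154 counts (170 CPM), against at most 31.7 CPM in the other 20 libraries. ckma stood at 51.7 CPM against at most 19.7, ckmb at 68.2 against 34.5, and tnnt3b at 36.3 against 14.2. myhz1.1 (62.7 against 48.5 CPM) and actc1b (141 against 113 CPM) were also highest there. acta1b, with 9.91 CPM, was just under the highest of the others (10.1 CPM). pvalb1, pvalb2 and stac3 were not raised: with 8, 11 and 2 counts they stood at 0.705, 0.600 and 0.515 times the median of the other 20. Thus 6 of the 10 genes had their highest hypothalamic level in this library, in which 2.31% of the 13311 genes with at least 10 counts were highest. The library was singled out by the summed level of these same 10 genes, which favours such a share. The 2.31% had no such selection, so the 2 shares are a description and no test.

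Other transcripts were also high in that library. The beta-tropomyosin tpm2 had 57 counts (62.7 CPM, at most 8.31 elsewhere), and the glycolytic enzyme gapdh had 219 (241 CPM, at most 30.3). Of the 20 genes listed as fast myofibril, 5 were highest there, tpm2 among them, with a sum of 494 CPM against 182 to 438 CPM. Of the 15 slow muscle and heart genes 2 were highest there, with a sum of 262 CPM against 111 to 242 CPM. The sums of other muscle lists lay within the range of the other libraries, although single genes were highest there. Of the 13 muscle metabolism genes 4 were highest there (gapdh, aldoab, pgam2 and ak1). Their list summed to 2907 CPM against 2037 to 3495 CPM. That sum includes abundant genes such as phkg1a, with 1050 CPM there and 712 to 2234 CPM in the others. Of the 17 excitation and calcium release genes 2 were highest there (atp2a1 and srl), with a sum of 103 CPM (40.8 to 217). Of 7 myogenic factors 0 were highest, with a sum of 81.5 CPM (29.7 to 259). The 9 connective tissue and bone markers summed to 527 CPM against 206 to 518 CPM. The 7 globin and red cell markers summed to 14992 CPM against 2027 to 11228 CPM, and the 9 brain markers to 15879 CPM, within the range of the others (11824 to 22175). The library was also the deepest of the hypothalamus, with 934685 UMIs. Which tissue the excess came from was not tested.

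**Figure D3:**
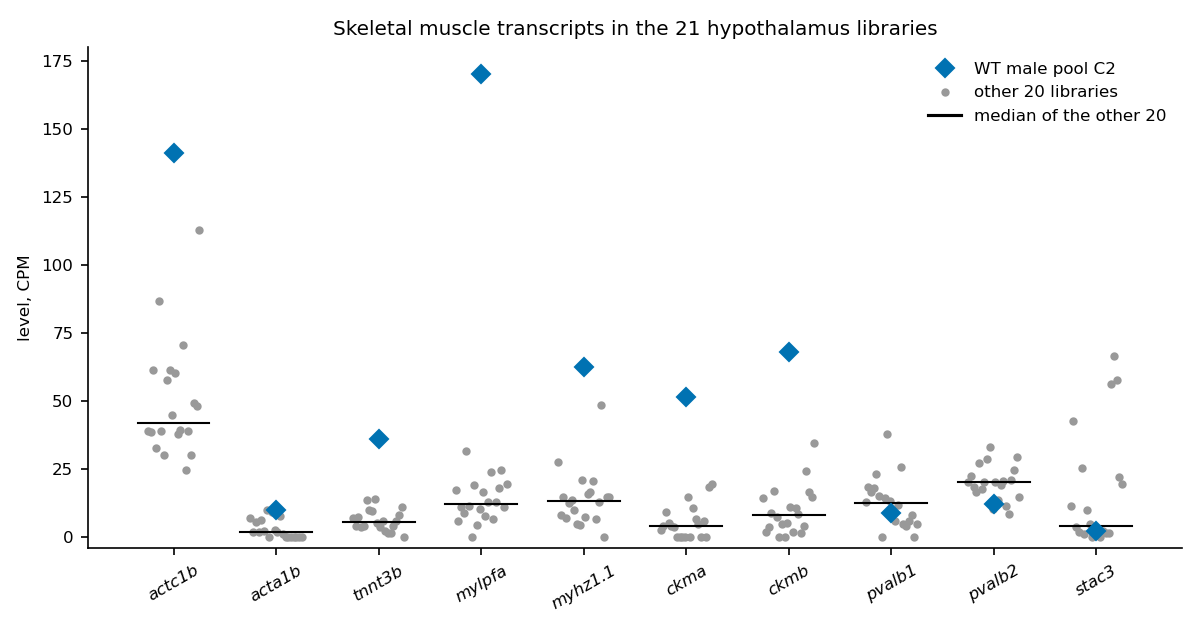
Level in CPM of the 10 genes in the 21 hypothalamus libraries; the diamond is WT male pool C2, grey points are the other 20 and the line is their median. The diamond is the highest point for actc1b, tnnt3b, mylpfa, myhz1.1, ckma and ckmb, and lies under the median for pvalb1, pvalb2 and stac3.

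In the Tel, WT male pool A1 had the largest sum of its group, 242 CPM against 71.2 to 105 CPM. The excess was largest for myhz1.1, which with 47 counts (117 CPM, at most 84.3 in the other 20) was the only one of the 10 with its highest Tel level there, beside 4.18% of all 11816 genes. Without myhz1.1 the sum was still 125 CPM there, against 59.8 to 84.0 CPM in the other 5 WT male pools. actc1b stood at 42.4 CPM, mylpfa at 20.0 CPM, ckmb at 15 CPM and ckma at 12.5 CPM, above the medians of the other 20 Tel libraries (24.8, 6.29, 2.3 and 0 CPM) but within their ranges. In the same library the keratin krt5 read 7821 CPM, against 4.97 to 115 CPM in the others.

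The main question of the study was how mutants differ from WT. For 8 of the 10 genes, those not selected on genotype, the quasi-likelihood test of edgeR (Benjamini-Hochberg) called none in any of the 6 comparisons. The background of called genes in females was 2.52% (OB), 2.45% (Tel) and 3.54% (hypothalamus), and in males 0.0221%, 0.0225% and 1.93%. Before adjustment, 4 of the 8 had a p of 0.05 or less in the OB of females and 1 in the OB of males (ckma). In the hypothalamus of males it was 1 (acta1b), and 0 in the other 3 comparisons. Among all genes tested, 550 of 4529 (OB), 559 of 4447 (Tel) and 784 of 6469 (hypothalamus) had such a p in females. In males the numbers were 430, 428 and 966. Nearly all of these genes passed the filter on low counts, which most of the 8 did not. DESeq2 called 1, ckma in the OB of females, and 0 in the other 5 comparisons.

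In the OB of females most muscle transcripts had a higher fitted value in mutants, with none of the 8 past the test. actc1b, shown as a description, read 93.1, 61.3, 89.0 and 97.4 CPM in the 4 mutant pools (4, 10, 6 and 10 counts), against 28.5 to 48.1 CPM (median 36.4) in the 6 WT pools. No mutant pool overlapped the WT range, and the fitted log2 fold change was 1.3 ± 0.33 (SE). The gene was selected on genotype, and the share of all genes without overlap was not computed. ckma read 69.8, 166, 178 and 58.5 CPM in mutants (3, 27, 12 and 6 counts) against 12 to 79.2 CPM (median 33.9) in WT. Only 2 mutant pools, A2 and B1, exceeded all WT pools for ckma. Its log2 fold change was 1.89 ± 0.60 by edgeR (adjusted p = 0.107, over the alternatives 0.0142 to 0.352).

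The other genes of this comparison rested on fewer counts. myhz1.1 read 0, 6.13, 134 and 48.7 CPM in mutants (0, 1, 9 and 5 counts) against 0 to 19.0 CPM in WT, a log2 fold change of 2.05 ± 0.68 (edgeR, adjusted p = 0.138). pvalb1 read 0, 12.3, 74.2 and 58.5 CPM against 4.54 to 19.0 CPM, or 1.82 ± 0.69 (0.227), and pvalb2 0, 18.4, 14.8 and 48.7 CPM against 6.02 to 16.2 CPM, or 1.36 ± 0.65 (0.4). Pools B1 and C1 were thus above the WT range for myhz1.1 and pvalb1, and pool A1 had no count of any of the 3. Over the 7 genes with a count in both groups, 6 had a higher fitted value in mutants and 1 a lower one, with a median log2 fold change of 1.82 beside 0 over all genes. Of these 7 only ckma passed the usual filter on low counts, unlike nearly all genes of that background. With no filter the median over all genes was -0.145.

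Mutant and WT females also differed in depth: the 4 mutant OB libraries held 31219, 207510, 62164 and 95988 UMIs, against 189762 to 541159 in WT females. Without the 2 OB libraries under 0.3 times the median total, actc1b differed by 1.13 ± 0.39, ckma by 1.75 ± 0.71 (adjusted p = 0.352) and myhz1.1 by 1.13 ± 0.80 (0.686). ckma was called when the counts were thinned so that no OB library exceeded 79076 UMIs, a total that mutant pools A1 and B1 did not reach (2.59, adjusted p = 0.0175) and in the fit without WT pool B1, and myhz1.1 in the fit without mutant pool A2. The 20 further fast myofibril genes summed to 58.5 to 442 CPM in mutants and 70.0 to 186 CPM in WT, and the skin markers to 5538 to 10845 against 7550 to 15991 CPM. The 9 connective tissue and bone markers in the table did not overlap, with sums of 1885 to 2865 CPM in mutants and 3329 to 8827 CPM in WT. Of the 5 that were tested 4 had an unadjusted p of 0.05 or less, and 1 was called. Among all 4529 genes 550 had such a p and 114 were called (edgeR). The share of all genes whose ranges do not overlap was not computed. The part of depth and of these tissues in the result was not tested.

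**Figure D4:**
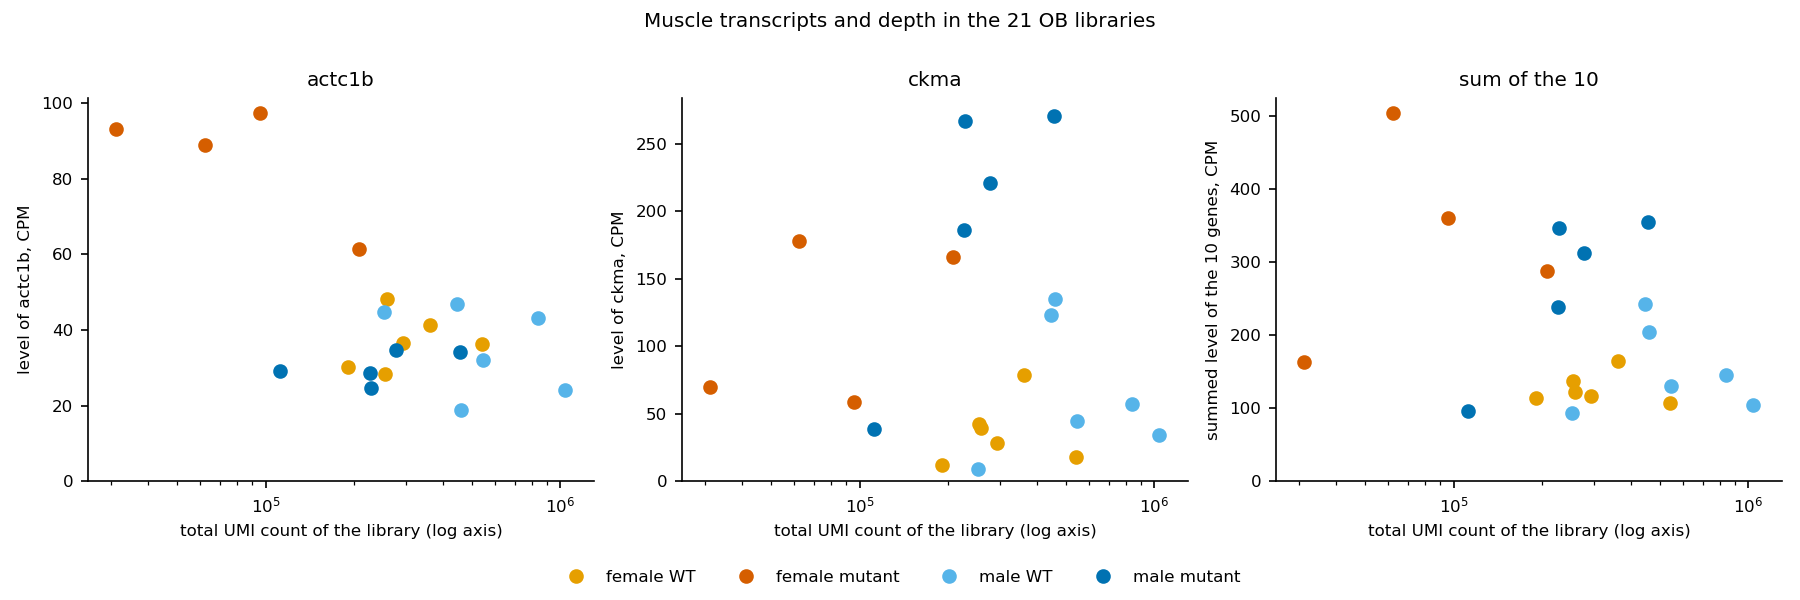
Level of actc1b, of ckma and of the 10 genes summed (CPM) against the total UMI count of each of the 21 OB libraries (log axis), coloured by sex and genotype. The 4 mutant female points (61.3 to 97.4 CPM) are the highest of the actc1b panel and 3 of them are the shallowest libraries, while the highest ckma points are those of mutant males at 186 to 271 CPM.

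In the OB of males, ckma was the only one of the 8 genes with an unadjusted p of 0.05 or less. It read 221, 271, 38.7, 267 and 186 CPM in the mutant pools (51, 103, 4, 54 and 39 counts) against 8.96 to 135 CPM (median 51.1) in WT. The 4 pools A1, B1, C1 and C2 exceeded all WT pools, while B2 lay within the WT range. The log2 fold change was 1.64 ± 0.42 (edgeR, adjusted p = 0.245, over the alternatives 0.00166 to 0.362), and ckma was called when all genes with low counts were kept in the fit (1.60, adjusted p = 0.00166). The ranges of actc1b overlapped, with 24.7 to 34.7 CPM in mutant males and 18.9 to 47.0 CPM in WT males. Over the 7 genes with a count in both groups the median was -0.19 beside -0.01 over all genes (-0.12 with no filter on low counts).

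In the Tel and the hypothalamus the 8 genes showed no common shift that passed the test. Among those with a count in both groups, 5 of 6 had a higher fitted value in mutant females of the Tel (median 0.59, all genes -0.01), 2 of 8 in mutant males of the Tel (-1.20, all genes 0.05), 4 of 7 in mutant females of the hypothalamus (0.09, all genes 0.04) and 2 of 7 in mutant males of the hypothalamus (-0.64, all genes 0.01). With no filter on low counts the medians over all genes were -0.374, -0.0589, -0.117 and -0.159 in the same order. The median of hypothalamus males turned with a single library: without the hypothalamus library of WT male pool C2, 6 of 7 had a higher fitted value in mutants, with a median of 0.33 (all genes 0.02) and none called. In males of the Tel the median was -0.21 without WT pool A1. Leaving out a single pool also took the median of females in the hypothalamus to between -0.31 (mutant B1) and 0.27 (mutant C1), so no direction is read from it. acta1b had no count in the 5 hypothalamus libraries of mutant males and 15 in those of WT males. ckma likewise had none in the 4 of mutant females and 17 in WT females. Pooled over the mutant libraries, 3 counts, the limit that a count of 0 allows, stood for 2.6 CPM (acta1b) and 3.35 CPM (ckma), against pooled WT levels of 3.77 and 4.82 CPM. Of the 15 counts of acta1b in WT males, 9 came from pool C2. In the other 5 WT male pools acta1b read 0 to 7.96 CPM, with a median of 1.19 CPM that is under the pooled limit. In single mutant libraries the limit was 9.09 to 24.7 CPM (acta1b) and 7.91 to 30.3 CPM (ckma). That is near or above the highest WT values of 9.91 CPM (acta1b in pool C2) and 9.32 CPM (ckma). actc1b was 30.3 to 61.4 CPM in mutant females and 32.9 to 86.6 CPM in WT females, and 30.3 to 113 CPM in mutant males and 24.9 to 141 CPM in WT males (24.9 to 70.5 CPM without pool C2). In the Tel, actc1b of mutant females read 30.2, 126, 25.7 and 49.0 CPM against 8.51 to 42.2 CPM in WT. Only pools A2 and C1 were above the WT range.

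stac3 showed another pattern. In the hypothalamus of mutant males it read 56.3, 66.7, 57.6, 22.3 and 19.7 CPM (13, 22, 7, 6 and 4 counts), against 0 to 2.38 CPM (median 1.78, 7 counts in all) in the 6 WT male pools. The groups did not overlap, and as a description the fitted log2 fold change was 4.50 ± 0.70. Since stac3 was selected on genotype and the share of all genes without overlap was not computed, nothing is read from the missing overlap. In the Tel of the same groups it read 54.0, 46.7, 57.6, 4.97 and 17.9 CPM (16, 8, 15, 1 and 3 counts) against 0 to 2.49 CPM, with 2 counts in all in WT. Here the ratio of pooled levels was 41.9, with an exact 95% interval of 10.9 to 357. Such intervals are given for ratios of stac3 in which a group had 1 to 3 counts. They cover counting error alone and are no test, since stac3 was selected on this difference. In the OB, 5 counts in mutant males faced 1 in WT males, and the ratio was 12.4 (1.39 to 587), with 4 of the 5 counts from pool B1 alone.

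In females the order was the other way round, with a split inside the WT group. In the hypothalamus, WT female pools A2, C1 and A1 read 42.8, 25.4 and 11.6 CPM (21, 12 and 8 counts), while B1, B2 and C2 read 3.73, 1.83 and 1.27 CPM. In the Tel the same codes were high: C1 read 47.9, A2 read 24.1 and A1 read 18.8 CPM (17, 17 and 3 counts), and B1, B2 and C2 had no count. Mutant females had 0 or 1 count in every Tel and hypothalamus library, 2 and 3 counts in all. The ratio of mutant to WT females was 0.284 in the Tel (0.0331 to 1.1) and 0.262 in the hypothalamus (0.0521 to 0.816), again as a description.

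As a description, stac3 was high under the same pool codes in both regions. Of the 21 pools, 8 had at least 3 counts in the hypothalamus and 7 in the Tel. All 7 of the latter were among the 8, no pool reached 3 counts in the Tel alone, and 1 did so in the hypothalamus alone. The other 13 had fewer than 3 in both regions, and 2 pools reached 3 in the OB. These 8 pools were all 5 mutant male pools and 3 of the 6 WT female pools. Since stac3 was selected on genotype, the agreement in the mutant male pools can follow from that selection, and nothing is read from it. This sorting depends on depth. In mutant females 3 counts stood for 14.7 to 90.7 CPM in the Tel and 7.91 to 30.3 CPM in the hypothalamus. The highest stac3 level of any Tel library was 57.6 CPM. Mutant female pool A1 read 10.1 CPM in the hypothalamus from 1 count, close to WT female pool A1 (11.6 CPM from 8 counts). Low stac3 and low depth are thus not told apart in mutant females.

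**Figure D5:**
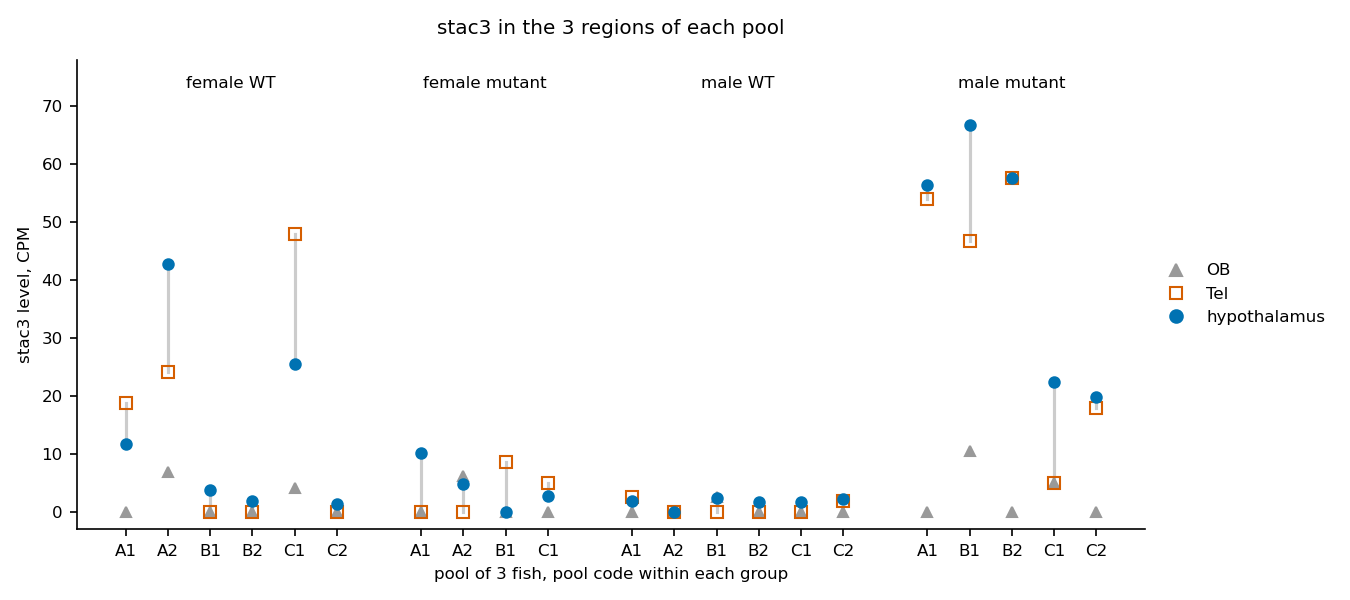
Level of stac3 in CPM in the OB (triangle), Tel (open square) and hypothalamus (circle) of each pool of 3 fish, by group and pool code, with a grey line joining Tel and hypothalamus. The square and the circle are both raised in WT female pools A1, A2 and C1 and in 4 of the mutant male pools, and both are near 0 in all 6 WT male pools.

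The sum of the 8 genes other than actc1b and stac3 overlapped between pools high and low in stac3. In the hypothalamus it was 47.6 to 130 CPM in mutant males and 38.2 to 419 CPM in WT males. Without WT pool C2 the WT males reached 108 CPM, and mutant pool B1, which also had the most stac3, lay above them. In the Tel the sum was 49.7 to 65.8 CPM in mutant males against 38.4 to 197 CPM in WT males (38.4 to 105 CPM without pool A1). Among WT females, pools C1 and A1, high in stac3, had the highest sums of the hypothalamus (127 and 110 CPM), while A2, with the most stac3, had the lowest (67.3 CPM). In the Tel these 3 pools (36.6, 50.1 and 41.0 CPM) lay among the others (30.3 to 70.8 CPM). In the library with the most muscle transcripts, WT male pool C2, stac3 had 2 counts (2.20 CPM). The partners of Stac3 at the calcium release site overlapped between the groups: cacna1sa, the pore of Cav1.1, read 0 to 8.23 CPM in mutant males and 0 to 5.97 CPM in WT males of the hypothalamus, and ryr1b, a muscle ryanodine receptor, 8.23 to 45.5 against 23.3 to 63.6 CPM. In single mutant male libraries of the hypothalamus 3 counts stood for 9.09 to 24.7 CPM. All cacna1sa values there were lower, so nothing is read from its overlap. Of the 17 genes of muscle excitation and calcium release in the table, 2 passed the filter in the hypothalamus, and none was called in males.

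Across the 21 hypothalamus libraries, the genes whose rank order was most like that of stac3 among 11921 genes were dap1b (Spearman rho 0.73), rnf13 (0.73), a ubiquitin ligase, and sptlc1 (0.71), a subunit of serine palmitoyltransferase. None is one of the 10 genes, whose rho with stac3 ran from -0.35 (acta1b) to 0.42 (ckmb, rank 258). For actc1b they were the homeobox gene otx2a (0.72), the trafficking gene yif1b (0.68) and the tRNA methyltransferase gene trmt5 (0.67). mylpfa came ninth for actc1b (0.64) and ckmb came at rank 143 (0.46), while stac3 and actc1b were unrelated in rank (-0.01). The rest of the 10 genes had a rho with actc1b of 0.06 (acta1b) to 0.40 (ckma). These values are descriptions, since all points share libraries and depth. The 2 genes next to stac3 in the reference annotation were not analysed here.

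Males and females were compared within each genotype. In WT fish none of the 10 genes was called by edgeR in any region, where 0.0883% (OB), 0.045% (Tel) and 0.0155% (hypothalamus) of all genes were called. Before adjustment 0, 2 and 3 of the 10 had a p of 0.05 or less, and DESeq2 called none. Among all genes, 165 of 4529, 82 of 4447 and 242 of 6469 had such a p. The 2 in the Tel and the 3 in the hypothalamus include stac3. Its WT male libraries had also entered its selection, so its values are a description. The ratio of WT males to WT females was 0.0533 in the Tel (2 against 37 counts, exact interval 0.00622 to 0.207). In the hypothalamus it was 0.138 (7 against 45 counts). In the hypothalamus the fitted difference of WT males from WT females was 1.68 ± 0.66 for ckma and 1.55 ± 0.59 for mylpfa (edgeR, adjusted p = 1 for both). Without WT male pool C2 these differences were 0.61 and -0.09.

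In mutants none of the 8 genes was called between the sexes, beside 2.19% (OB), 1.17% (Tel) and 2.38% (hypothalamus) of all genes. Before adjustment 3, 1 and 3 of the 8 had a p of 0.05 or less, and DESeq2 called none. Among all genes, 711 of 4529, 377 of 4447 and 640 of 6469 had such a p. The 3 in the OB were myhz1.1, pvalb1 and pvalb2. Their log2 differences of mutant males from mutant females were -2.14 ± 0.73, -1.91 ± 0.73 and -1.44 ± 0.69 (edgeR, adjusted p 0.119, 0.177 and 0.305). In the hypothalamus that of pvalb1 was -1.99 ± 0.73 (adjusted p = 0.239). The interaction of sex and genotype, which shares these libraries, was called for none of the 8, beside 0.177% (OB), 0.495% (Tel) and 2.04% (hypothalamus) of all genes. Before adjustment pvalb1 and tnnt3b had a p of 0.05 or less in the OB, and none of the 8 did in the other regions. Among all genes, 437 of 4529 (OB), 337 of 4447 (Tel) and 603 of 6469 (hypothalamus) had such a p. Again DESeq2 called none of the 8. As a description, stac3 read 19.7 to 66.7 CPM in the hypothalamus of mutant males and 0 to 10.1 CPM in that of mutant females, and actc1b was higher in the OB of mutant females (61.3 to 97.4 CPM) than of mutant males (24.7 to 34.7 CPM).

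Related muscle genes were read from lists drawn up by function. Of the 20 fast myofibril genes in the table, 3 were tested in the hypothalamus and 1 each in the OB and the Tel, and none was called between genotypes or sexes. Of 15 slow muscle and heart genes 1 was tested per region, and none was called. Of 13 genes of muscle metabolism, the oxygen store mb was lower in the hypothalamus of mutant females, with 0 to 14.2 CPM (5 counts in all) against 52.3 to 112 CPM in WT females, a log2 fold change of -3.57 ± 0.76 (edgeR, adjusted p = 0.0047). It was also called between mutant males and females (3.82 ± 0.79, adjusted p = 0.00492). Of the calcium release and excitation genes, scn4aa, a sodium channel gene also known outside muscle, had 1 count in the same mutant females against 170 in WT females. The ratio was 0.0231 (exact interval 0.000582 to 0.131, edgeR adjusted p = 0.00502). Between mutant males and females scn4aa was also called (4.98 ± 1.19, edgeR adjusted p = 0.0162). The interaction was called for mb and scn4aa. In the hypothalamus library of WT male pool C2 neither gene was highest. There mb read 103 CPM (0 to 199 in the others) and scn4aa 19.8 CPM (0 to 113). Elsewhere on the lists, ak1, an adenylate kinase, was higher in the OB of mutant males than of mutant females (0.90 ± 0.21, adjusted p = 0.0227), and the collagen gene col1a2 was lower in the OB of mutant females (-1.35 ± 0.33, adjusted p = 0.0226).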

How the data were processed

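UMI counts per gene were used as deposited. Per the study's methods, the authors had sequenced 3′ barcoded libraries (BRB-seq), kept first reads of 16 bases (a sample barcode of 6 and a UMI of 10) above a quality of 10, aligned second reads to the danRer11 transcriptome (BWA 0.7.4.4 in the submitters' processing notes), dropped reads mapping to several places and counted distinct UMIs, without scaling in the deposited table. A 3′ count is not scaled to transcript length, and dropped reads lower the counts of near-identical paralogs.

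The members and the gene lists were chosen with earlier results of these data known. Named genes are the 10 members, the 3 genes most like actc1b or stac3 in rank over 21 hypothalamus libraries (among genes counted in at least 11), their neighbours in the reference table, up to 3 called genes per list, and the targeted gene. Genes cited in the library of WT male pool C2 and in observations were chosen after their values were seen.

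Each region was fitted with its 21 libraries (4 groups) in R 4.3.3 with edgeR 4.0.16 (quasi-likelihood, TMM scaling, Benjamini-Hochberg over all genes tested) and limma 3.58.1. Low genes were removed by filterByExpr, with the members always kept. Genes were called at an adjusted p of at most 0.05 and 1.5-fold or more (interaction: adjusted p alone). Regions were compared in the 36 WT libraries, averaged over sexes. P-values measure the spread between pools. Ratios of pooled counts carry exact 95% intervals, and these and the limit of 3 counts cover counting error only. Fits and steps were tested on simulated data. Alternatives were DESeq2 1.42.0 (which left some low genes with no adjusted p), its size factors, library totals, no filter, a stricter filter (mean of 5 counts), thinned counts, low-total libraries left out, other samples in the fit, blocks and each library left out; leaving out the hypothalamus library of WT male pool C2 or the Tel library of WT male pool A1 was chosen after seeing the data. Hypothalamus and Tel libraries of the same code deviated together in 12 of 12 WT pools (r 0.112 to 0.35), as the shared fish of the 3 regions allow. A code may thus pair these regions. In the other comparisons not every pool did so. The region values reported are from the fit without this pairing, and the pool as replicate block was an alternative. No 2 replicates of the 138 pairs were identical.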

Additional observations from a re-analysis of the deposited data

Results flagged for a closer look

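In 83 groups of 4 to 6 pools with at least 10 counts of a gene, or of the 10 genes summed, 10 held a pool far from the others. The nominal chance share of the rule is about 5% of groups, which values resting on few counts need not follow. Above the others stood tnnt3b in the hypothalamus of WT male pool C2 (36.3 CPM, others 1.66 to 5.97), the summed level in the Tel of WT male pool A1 (242 CPM, others 71.2 to 105) and myhz1.1 in the OB of mutant male pool B2 (19.4 CPM from 2 counts, others 8.68 to 10.5). Below the others stood ckma in the OB of the same mutant male pool B2 (38.7 CPM from 4 counts, others 186 to 271) and pvalb2 in the Tel of WT female pool C2 (3.03 CPM from 1 count, others 11.3 to 22.5). At 0 CPM stood actc1b in the Tel of WT male pool B2 (others 11.2 to 42.4) and of mutant male pool B1 (others 17.9 to 29.8), mylpfa in the OB of WT male pool A2 (others 6.35 to 13.5), myhz1.1 in the OB of WT female pool C1 (others 8.75 to 19.0) and pvalb1 in the Tel of mutant male pool C1 (others 11.5 to 23.9).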

How the results depend on the processing

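Among the counts of members called and the summed levels, 599 values under an alternative stayed within 1.5 times the value reported or within the spread between pools, 13 counts rose, 9 fell and 9 sums moved. For 8 genes in the OB of females the count rose from 0 to 1 (ckma) with DESeq2, thinned counts, no filter, only 2 groups in the fit and the pool letter as block, and leaving out each library in turn gave 0 to 1 (ckma without WT pool B1, myhz1.1 without mutant pool A2). With no filter it was 1 in the OB of males (ckma) and 1 between the sexes in the Tel of WT fish (stac3, with WT male libraries that entered its selection).

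Between hypothalamus and Tel the 4 calls fell to 1 with thinned counts and 1 without the hypothalamus library of WT male pool C2; leaving out each pool gave 1 to 4 (1 without male C2, 2 without female C1). Between OB and hypothalamus the 8 calls fell to 5 with DESeq2 and with its size factors, 3 with thinned counts and 4 without that library, and leaving out each pool gave 4 to 8 (4 without male C2). Between OB and Tel the count was 2 on library totals (ckma, pvalb2) and leaving out each pool gave 1 to 2 (acta1b added without male A2, pvalb2 without male C2). With the pool as replicate block the counts of these 3 comparisons were 4, 7 and 2 (stac3 added), and with the pool code as replicate block no genotype or sex count left 0.

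The median summed level of a group was moved by leaving out the 2 parvalbumins (97.9 CPM in the OB of WT females, 87.5 in the Tel of mutant males, 93.4 in the hypothalamus of mutant females) or actc1b and stac3 (80.6 in the OB of WT females, 45.6 in the Tel of WT females, 57.4 in the Tel of mutant males, 86.8 and 75.3 in the hypothalamus of WT and mutant females, 100 in that of mutant males). The sex difference of mylpfa in the hypothalamus of WT fish was -0.09 without WT male pool C2 and up to 1.87 without another library (1.55 reported). That of tnnt3b in the Tel of mutants was 1.72 without low-total libraries (-3.13 reported, 1 count in mutant males). Library totals moved the median of all genes from -0.10 to -0.32 between OB and hypothalamus, and from -0.08 to -0.30 between OB and Tel. Causes were not tested. Depth limited most members: 3 counts stood for 90.7 CPM in the shallowest mutant female Tel library and for 69.8 CPM in the shallowest OB library, above most levels reported.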

Other observations

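Some muscle genes outside the 10 also differed between WT regions. In the 36 WT libraries tcap, which caps titin at the Z disc, was higher in the hypothalamus than in the Tel by a log2 fold change of 2.79 ± 0.30 (edgeR, adjusted p = 6.41e-10), and pgam2, the muscle phosphoglycerate mutase, by 2.82 ± 0.37 (adjusted p = 6.64e-08). tcap read 13.9 to 109 CPM in the 21 hypothalamus libraries of both genotypes and 0 to 28.9 CPM in those of the Tel. ryr1b was also higher in the hypothalamus (1.12 ± 0.29), while the tropomyosin gene tpma was lower (-1.16 ± 0.28). pvalb5, the parvalbumin gene next to pvalb1, read 9936 to 23385 CPM in the OB, 78.7 to 358 CPM in the Tel and 76.5 to 195 CPM in the hypothalamus, in an order that neither pvalb1 nor pvalb2 showed.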
